A study of Rattus norvegicus with 6 samples.

Results

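Histone lysine methyltransferases and demethylases, together with core subunits of their complexes, were followed by name through the read counts of PC12 cells after NQO1 knockdown. The members are the protein-coding genes of the count table whose symbol starts with Prdm, Kdm, Kmt, Setd, Smyd, Ehmt, Suv39h, Nsd or Ezh followed by a further character, or is Ash1l, Dot1l, Eed, Suz12, Jmjd6, Jarid2, Phf8, Uty or Whsc1. This rule found 65 of 18746 genes, and 60 of them had enough reads to be tested. It also takes in Nsdhl, an enzyme of cholesterol synthesis whose symbol only resembles that of the Nsd genes, so that 64 members belong to the chromatin families. PC12 is a line from a rat adrenal pheochromocytoma. Cells transfected with an siRNA against NQO1 (siNQO1, 3 libraries) were compared with cells transfected with a negative control siRNA (siCtrl, 3 libraries). The sample labels describe these reagents as an shRNA and a control plasmid, and both sources group the samples alike. Both groups were transfected with a lipid reagent, cells were harvested at 48 h for RT-qPCR, and the harvest time of the sequenced cells is not spelled out.

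Methyl groups on lysines of histones H3 and H4 mark the state of a gene. Methylation of H3K4 is found at active promoters and enhancers, H3K36 methylation along transcribed gene bodies, and H3K9 and H3K27 methylation in silenced chromatin. Most of the enzymes that write these marks carry a SET domain and use S-adenosylmethionine, whereas DOT1L, which methylates H3K79, has a different fold. The marks are removed by the flavin-dependent amine oxidases KDM1A and KDM1B or by JmjC enzymes, which need iron, oxygen and 2-oxoglutarate.

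The libraries held between 28873824 and 39467230 reads in genes. Nqo1, the target, was at 320.5 to 368.6 FPKM in siCtrl and at 75.2 to 80.8 FPKM in siNQO1, where FPKM is the length-scaled level calculated by the authors. Defining markers of chromaffin cells were nearly absent from every library. Of the 12 markers looked for, 10 were in the table, and together they reached 0.92 to 1.17 FPKM in siCtrl and 0.91 to 1.12 in siNQO1. The tyrosine hydroxylase gene Th stood at 0.04 to 0.09 FPKM, Dbh at 0.02 to 0.12 and Chga at 0.01 to 0.04, and Ddc was listed at 0 in 5 of the 6 libraries. These levels go against the label of the line. Sox10, a transcription factor of neural crest derived glia and melanocytes, was at 198.5 to 232.8 FPKM in siCtrl and 192.4 to 207.5 in siNQO1. Summed over the 13 of 16 markers of other cell types in the table, the level was 235.0 to 269.8 FPKM in siCtrl and 236.8 to 251.4 in siNQO1. The label of the line is used here for the samples as deposited. In these bulk libraries fewer cells of a type and less RNA per cell cannot be told apart. Transcripts of siCtrl replicate 2 stood apart from the other siCtrl libraries, and values without it are given beside the results where the calls of the members changed. This library was singled out after its values were seen, and p-values without it do not account for that choice. For genes in which it differed from the other siCtrl libraries, leaving it out also narrows the spread within siCtrl.

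Most of the members were expressed at low to moderate levels. A mean of more than 1 FPKM over the 6 libraries was reached by 48 of the 65 genes and a mean of more than 10 by 15. The highest levels belonged to Smyd2, which methylates lysines of histones and other proteins, to Setd8, the H4K20 monomethyltransferase also called Kmt5a, and to Ehmt2, the H3K9 methyltransferase G9a. Smyd2 was at 44.7 to 49.1 FPKM in siCtrl and 50.5 to 54.5 in siNQO1, Setd8 at 43.5 to 52.4 and 41.3 to 47.1, and Ehmt2 at 43.6 to 47.9 and 38.8 to 39.8. Jmjd6, Ezh2, Kdm1a and Eed followed at mean levels between 14 and 30 FPKM. At the lower end, the PRDM genes Prdm1, Prdm6 and Prdm13 and the muscle gene Smyd1 were among the members that had at most 6 reads in any library and were not tested.

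**Figure D1:**
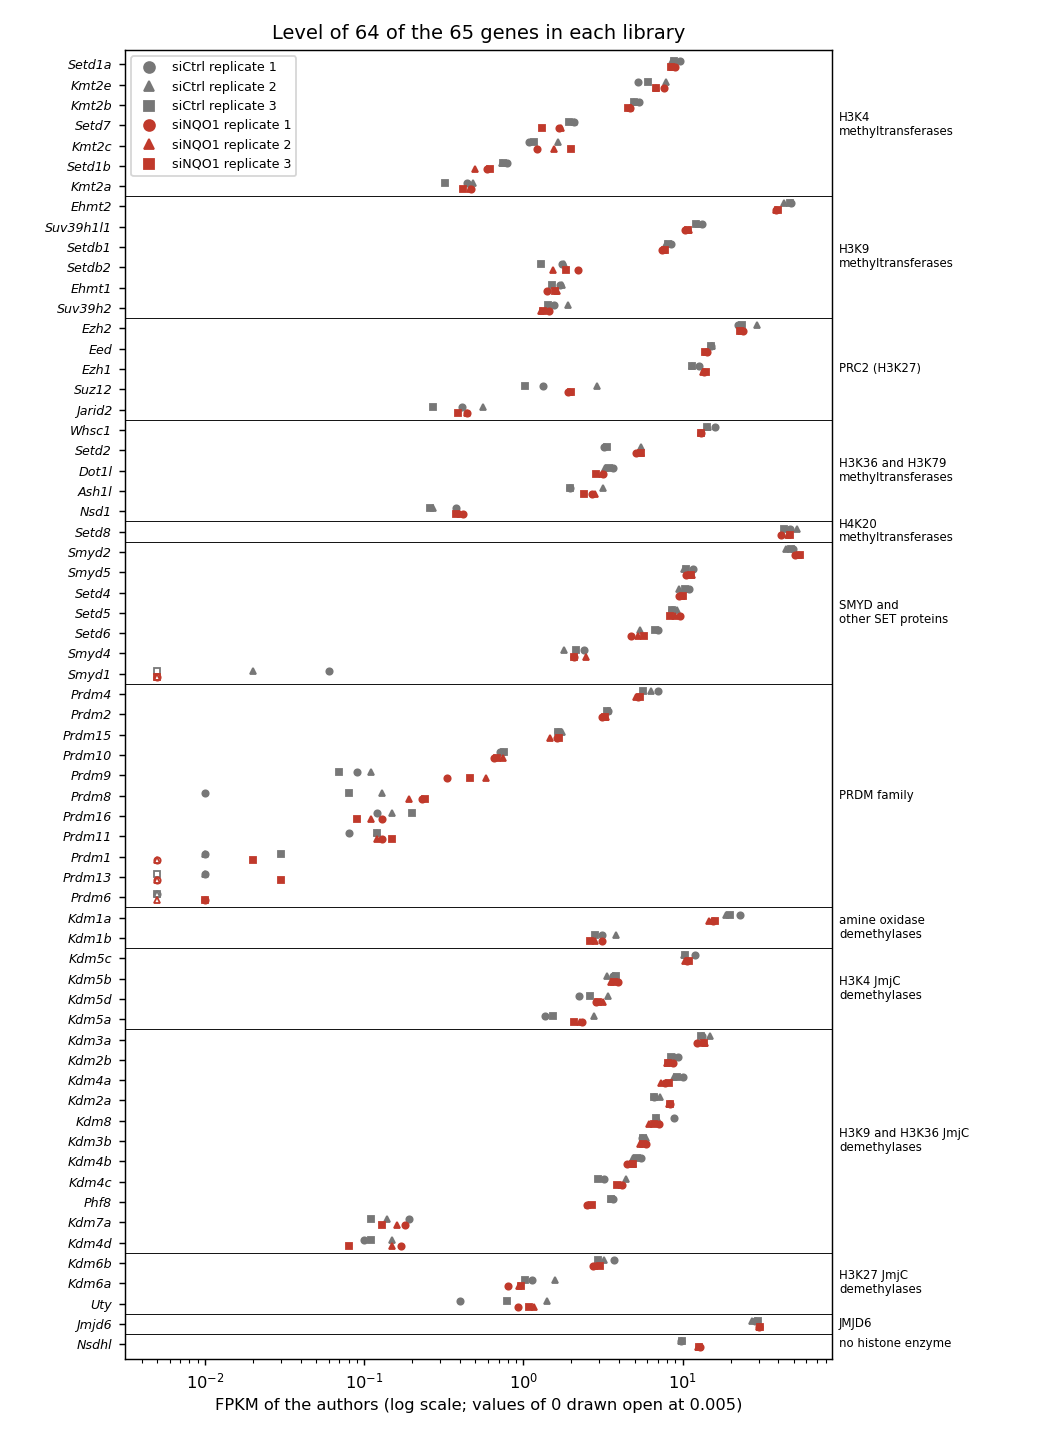
FPKM of 64 of the 65 genes in each library on a log scale, ordered by the mark or family of the gene and by mean level; gray is siCtrl, red is siNQO1, and the marker shape gives the replicate. Most genes lie between 1 and 50 FPKM in every library, and the PRDM family reaches to the bottom of the scale.

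After NQO1 knockdown 4 of the 60 members tested were higher and 4 were lower, and 52 did not pass an adjusted p under 0.05 in the quasi-likelihood test of edgeR. This is a share of 13.3% of the members, against 12.6% of all genes tested. For each direction the share was 6.67%, with 5.27% of all genes higher and 7.38% lower. Prdm9, Nsdhl, Kdm2a and Ezh1 were the higher genes, and Phf8, Kdm1a, Ehmt2 and Suv39h1 were the lower ones. Only Prdm9 also passed a fold of 2, which 0.435% of all genes did together with the test. The changes were otherwise small, and 58 of the 60 log2 fold changes lay within 0.5 of 0. The median log2 fold change was -0.042 over the members and 0.010 over all genes. In 8 members every siNQO1 library lay above every siCtrl library and in 15 every one lay below, or 13.3% and 25% of those tested, where all genes gave 16.3% and 17.9%. Both directions together made 38.3% of the members and 34.2% of all genes. An unadjusted p under 0.05 was found for 18 members (30%, against 29% of all genes).

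**Figure D2:**
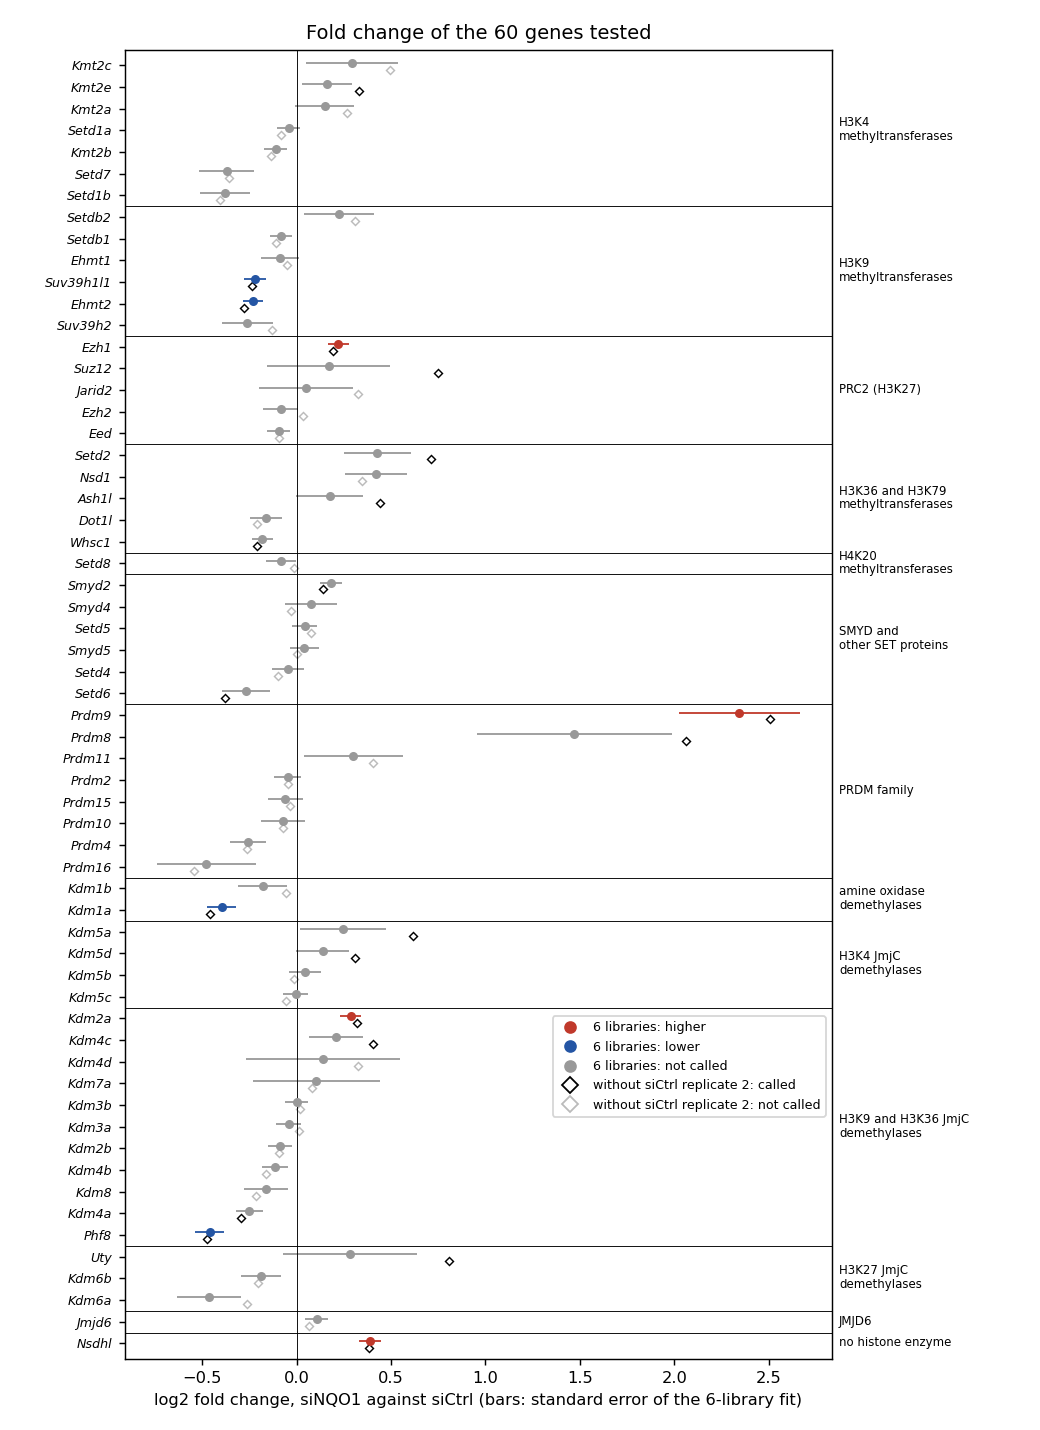
Log2 fold change of siNQO1 against siCtrl for the 60 genes tested, ordered by mark or family; filled points with standard errors are from all 6 libraries (red higher, blue lower, gray not called) and open diamonds are without siCtrl replicate 2 (black where called). With all 6 libraries Prdm9 and Prdm8 lie at 2.34 and 1.47, and the other genes lie between -0.48 and 0.43. Some diamonds lie outside that range, with Uty at 0.81 and Prdm16 at -0.54.

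Among demethylases, Kdm1a and Phf8 fell and Kdm2a rose. Kdm1a encodes LSD1, the amine oxidase of the CoREST repressor complex that removes methyl groups from H3K4. It was at 22.9, 18.9 and 19.8 FPKM in siCtrl (here and below in the order of replicates 1, 2 and 3) and at 15.6, 14.7 and 15.98 FPKM in siNQO1. The groups did not overlap, and siCtrl replicate 1 was the highest library. The log2 fold change was -0.40 (SE 0.077, edgeR adjusted p = 0.0142), so that 76.0% of the control level was left, and without siNQO1 replicate 2 the gene no longer passed (edgeR adjusted p = 0.0635). Kdm1b, the other amine oxidase, was at 3.25 ± 0.512 FPKM in siCtrl and 2.84 ± 0.252 in siNQO1 (SD, n = 3 each) and did not pass (edgeR adjusted p = 0.395).

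Phf8, on chromosome X, encodes a JmjC demethylase of H3K9 and H4K20 that binds H3K4-methylated promoters. It was at 3.67, 3.55 and 3.55 FPKM in the 3 siCtrl libraries and at 2.52, 2.53 and 2.71 in the 3 siNQO1 libraries. The replicates of each group were close together and well apart from those of the other group. The log2 fold change was -0.46 (SE 0.076, edgeR adjusted p = 0.00714), and the call held when any 1 library was left out (highest edgeR adjusted p = 0.0396). Kdm7a, a relative of Phf8 among the members, was at only 0.11 to 0.19 FPKM and did not pass.

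Kdm2a, an H3K36 demethylase that binds unmethylated CpG islands, was at 6.66, 7.18 and 6.66 FPKM in siCtrl and at 8.30, 8.18 and 8.29 in siNQO1. Every siNQO1 library lay above every siCtrl library (log2 fold change 0.29, SE 0.055, edgeR adjusted p = 0.0128). The call was lost without siCtrl replicate 3 or without any 1 of the siNQO1 libraries, with adjusted p of up to 0.0825 from edgeR. Its paralog Kdm2b was at 8.88 ± 0.451 FPKM in siCtrl and 8.28 ± 0.365 in siNQO1 (SD, n = 3 each) and did not pass (edgeR adjusted p = 0.407). Of 11 JmjC genes of the H3K9 and H3K36 demethylases tested, 9 did not pass. Kdm3a, a demethylase of mono- and dimethylated H3K9 that hypoxia induces, had the highest level of them, 13.8 ± 1.00 FPKM in siCtrl and 13.3 ± 0.755 in siNQO1 (SD, n = 3 each; edgeR adjusted p = 0.713). Kdm4a, which removes H3K9 and H3K36 trimethylation, came closest, with 9.31 ± 0.627 FPKM in siCtrl and 7.75 ± 0.496 in siNQO1 (edgeR adjusted p = 0.0564).

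**Figure D3:**
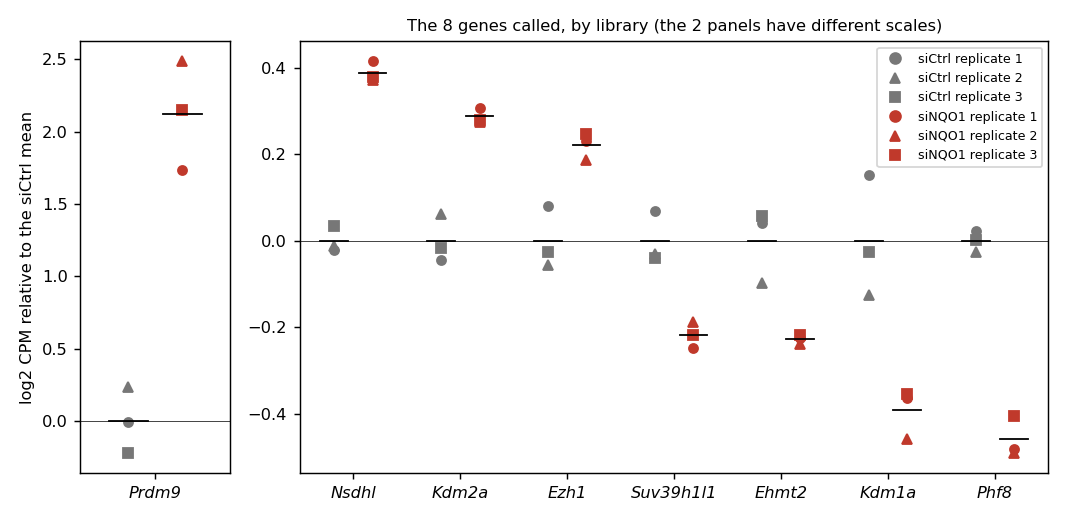
Log2 normalised read count (CPM) of the 8 genes called, drawn for each library as the difference from the siCtrl mean; horizontal lines are group means, and Prdm9 has a panel and scale of its own. For each gene the 3 siNQO1 points lie on one side of the 3 siCtrl points.

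Promoter sequence was searched in the RefSeq window of 250 bases before and 50 bases after the gene start (build GRCr8, which is not the build of the read counts), which was found for 55 of the 65 members. The NRF2 element TGACNNNGC, on either strand, was in 14.5% of these and in 12.1% of all 33365 windows, unfiltered by gene type or expression. Of the 7 genes called that had a window, it was found in Kdm1a, Phf8 and Nsdhl. Ezh1, the other gene called, had no window. The element was also in 5 of 45 members not called (Kmt2c, Kdm8, Suv39h2, Prdm16 and Kdm1b). The 30 bases around it in both falling demethylases are shown because they hold the same 9 letters, given in capitals, on the strand of the gene. Phf8 holds a second match on the opposite strand, and the pair was chosen after the matches were seen. The Kdm1a stretch is chr5:154121770-154121799 on the minus strand and the Phf8 stretch chrX:23967450-23967479 on the plus strand.
Kdm1a: ctttttgtccTGACGCGGCgagagcgcgca
Phf8: gggcactgcgTGACGCGGCatgtggtttct
The match begins at position -14 from the gene start in Kdm1a and at -118 in Phf8. Such a match is a description of letters, and no binding was measured here.

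The H3K9 methyltransferases held the other falls. Of the 6 genes tested, 2 were lower and none was higher, where 7.38% of all genes were lower. In 5 of the 6 the log2 fold change was negative (5998 of 12420 over all genes), and their median was -0.15. Ehmt2 encodes G9a, which writes H3K9 mono- and dimethylation together with its partner Ehmt1. It was at 47.9, 43.6 and 47.5 FPKM in siCtrl and at 38.9, 38.8 and 39.8 in siNQO1, so that the lowest siCtrl library, replicate 2, was still above the highest siNQO1 library. The log2 fold change was -0.23 (SE 0.054, edgeR adjusted p = 0.0280). Suv39h1, the H3K9 methyltransferase that trimethylates pericentric heterochromatin, is listed as Suv39h1l1 in the table and lies on chromosome X. It was at 13.3, 12.4 and 12.1 FPKM in siCtrl and 10.4, 10.96 and 10.8 in siNQO1, again without overlap (log2 fold change -0.22, SE 0.059, edgeR adjusted p = 0.0442).

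Both of these calls were near the threshold. Ehmt2 lost its call without siCtrl replicate 3 or without any 1 siNQO1 library (adjusted p up to 0.0994 from edgeR), and Suv39h1l1 without any 1 library other than siCtrl replicate 2 (up to 0.121). Summed over the 6 genes, the level was 74.6, 69.3 and 72.0 FPKM in siCtrl and 61.7, 61.9 and 63.1 in siNQO1, most of it from Ehmt2. Setdb2 was at 1.61 ± 0.280 FPKM in siCtrl and 1.86 ± 0.335 in siNQO1 (SD, n = 3 each; edgeR adjusted p = 0.456). Setdb1, which silences retroelements, was at 8.14 ± 0.260 FPKM in siCtrl and 7.62 ± 0.185 in siNQO1 (SD, n = 3 each), and Ehmt1 at 1.65 ± 0.123 and 1.54 ± 0.114, and neither passed (edgeR adjusted p = 0.382 and 0.611). Of 19 proliferation genes tested, 10 were lower and none higher, where 7.38% of all genes were lower. Their median log2 fold change was -0.26, with Mcm7 of the replicative helicase at -0.57 and Rrm2 of ribonucleotide reductase at -0.49, and their summed level was 1008 to 1055 FPKM in siCtrl and 834.4 to 849.7 in siNQO1. The proliferation marker Mki67, the checkpoint kinase gene Bub1 and the topoisomerase gene Top2a lay the other way, at 0.38, 0.36 and 0.11, and did not pass. These 3 were called higher without siCtrl replicate 2 (log2 fold changes 0.78, 0.82 and 0.39), and 14 of the list lower. Whether proliferation genes had a part in the falls of Ehmt2 and Suv39h1 was not tested.

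In the Polycomb repressive complex PRC2, which writes H3K27 methylation, one catalytic subunit rose and no other core gene passed. Ezh1, the catalytic subunit that is prominent in nondividing cells, was at 12.6, 11.5 and 11.5 FPKM in siCtrl and at 13.7, 13.4 and 14.1 in siNQO1. The groups did not overlap (log2 fold change 0.22, SE 0.058, edgeR adjusted p = 0.0397), and the call was lost without siCtrl replicate 3 or any 1 siNQO1 library (adjusted p up to 0.139 from edgeR). Ezh2, its paralog of dividing cells, was at 22.4, 29.3 and 23.6 FPKM in siCtrl and at 24.1, 23.2 and 23.1 in siNQO1. The siNQO1 libraries thus lay inside the siCtrl range, whose top was siCtrl replicate 2 (log2 fold change -0.083, edgeR adjusted p = 0.595). Eed, which binds trimethylated H3K27, was even among replicates, at 15.1 ± 0.197 FPKM in siCtrl and 14.0 ± 0.179 in siNQO1 (SD, n = 3 each), and did not pass (edgeR adjusted p = 0.330).

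Suz12, the scaffold of PRC2, varied more within siCtrl than between the groups. Levels of 1.32, 2.90 and 1.03 FPKM in siCtrl stood beside 1.90, 1.97 and 1.98 in siNQO1. Every siNQO1 library was above siCtrl replicates 1 and 3 and below siCtrl replicate 2 (log2 fold change 0.17, SE 0.327, edgeR adjusted p = 0.772). Without siCtrl replicate 2 the log2 fold change was 0.75 (edgeR adjusted p = 0.00385). Jarid2, a PRC2 cofactor, had the same order of siCtrl libraries, at 0.41, 0.56 and 0.27 FPKM, with 0.44, 0.44 and 0.39 in siNQO1.

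E2F motifs were searched because Ezh2 and other members are known targets of E2F factors in dividing cells. The forms TTTCCCGC and TTTGGCGC, on either strand, were found in 1.45% of all promoter windows and in 5.45% of the 55 member windows, which are those of Ezh2, Suz12 and Whsc1. None of these 3 genes passed the test with all libraries. Whsc1 is shown under its RefSeq name Nsd2, and capitals mark the motif. The stretches are chr4:77687156-77687185 on the minus strand for Ezh2, chr10:65464759-65464788 on the plus strand for Suz12 and chr14:81135955-81135984 on the minus strand for Nsd2.
Ezh2: gggctgctgcgTTTGGCGCtcggtccggtc
Suz12: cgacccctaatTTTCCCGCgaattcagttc
Nsd2: cggagcgcactTTTCCCGCggcttctgggg
The cell cycle element CHR (TTTGAA, either strand) was in 5.45% of member windows and 18.3% of all windows, and the CCAAT box in 47.3% and 37.5%. The NRF1 motif was in none of the member windows and in 0.854% of all. All windows were unfiltered by gene type or expression, whereas the members are protein-coding, and no share was tested.

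The KMT2 and SETD genes grouped under H3K4 methylation gave no call with all 6 libraries. Of these 7 genes, 3 had positive and 4 negative log2 fold changes. In 3 of them (Setd1b, Setd7 and Kmt2b) every siNQO1 library lay below every siCtrl library, and in none above. All genes tested gave 17.9% below and 16.3% above. Setd1a, the catalytic subunit of a COMPASS complex, was at 9.01 ± 0.538 FPKM in siCtrl and 8.67 ± 0.264 in siNQO1 (SD, n = 3 each; edgeR adjusted p = 0.702). Its paralog Setd1b was at 0.79, 0.73 and 0.74 FPKM in siCtrl and 0.59, 0.50 and 0.62 in siNQO1, without overlap, and did not pass (log2 fold change -0.38, edgeR adjusted p = 0.0932). Setd7, which monomethylates H3K4 and nonhistone proteins, had 2.04 ± 0.0924 FPKM in siCtrl and 1.57 ± 0.224 in siNQO1 (edgeR adjusted p = 0.136). Kmt2e, which binds H3K4 trimethylation, was at 6.38 ± 1.35 and 7.07 ± 0.452 FPKM (edgeR adjusted p = 0.466). Kmt2b was at 5.06 ± 0.231 and 4.64 ± 0.0737 FPKM, and the MLL family genes Kmt2a and Kmt2c were at 0.432 and 1.44 FPKM over the 6 libraries.

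Nsd1, Whsc1, Setd2, Ash1l and Dot1l, which write H3K36 or H3K79 methylation, did not pass with all 6 libraries, and 3 of the 5 log2 fold changes were positive. Whsc1, which encodes the H3K36 dimethyltransferase NSD2, was at 16.1, 14.5 and 14.3 FPKM in siCtrl and 13.1 in each siNQO1 library, below every siCtrl library, with an adjusted p of 0.0677 from edgeR. Setd2, the sole writer of H3K36 trimethylation in most cells, was at 3.19, 5.49 and 3.37 FPKM in siCtrl and 5.09, 5.49 and 5.49 in siNQO1. Here siCtrl replicate 2 was level with the siNQO1 libraries and the other siCtrl libraries were lower (log2 fold change 0.43, edgeR adjusted p = 0.153). Without siCtrl replicate 2, the siCtrl library that overlapped siNQO1, the log2 fold change was 0.71 (edgeR adjusted p = 7.26e-06). That p does not account for the choice of the library left out. Dot1l was at 3.46 ± 0.207 FPKM in siCtrl and 3.06 ± 0.161 in siNQO1, and Nsd1 at 0.303 ± 0.0666 and 0.400 ± 0.020 (SD, n = 3 each), with adjusted p of 0.248 and 0.131 from edgeR.

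Smyd2 and Setd8, at the top of the levels, did not pass either. Smyd2 had each siNQO1 value above the highest siCtrl value (log2 fold change 0.18, edgeR adjusted p = 0.0708), and Setd8 overlapped (log2 fold change -0.081, adjusted p = 0.536). Among other SET proteins, Smyd5 was at 10.8 ± 0.711 and 11.02 ± 0.511 FPKM and Setd4 at 10.3 ± 0.716 and 9.87 ± 0.290 (SD, n = 3 each; edgeR adjusted p = 0.757 and 0.771). Jmjd6, a JmjC hydroxylase of splicing factors, was at 28.4 ± 1.29 FPKM in siCtrl and 30.3 ± 0.411 in siNQO1 (SD, n = 3 each; edgeR adjusted p = 0.276).

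Demethylases of H3K4 and H3K27 of the JmjC class also gave no call. Kdm5c, on chromosome X, was at 11.9, 10.1 and 10.4 FPKM in siCtrl and 10.6, 10.4 and 11.01 in siNQO1, and its homolog on chromosome Y, Kdm5d, at 2.24, 3.38 and 2.62 and at 2.88, 3.18 and 2.93. For the H3K27 demethylase Kdm6a on chromosome X, the siNQO1 libraries at 0.80, 0.94 and 0.96 FPKM were below the siCtrl libraries at 1.14, 1.57 and 1.03 (log2 fold change -0.46, edgeR adjusted p = 0.112). Uty, its homolog on chromosome Y, ran from 0.40 to 1.41 FPKM within siCtrl and from 0.93 to 1.16 in siNQO1. Kdm5b, often high in tumours, was at 3.63 ± 0.239 and 3.71 ± 0.186 FPKM (edgeR adjusted p = 0.757). Kdm6b, which is induced in many stress responses, was at 3.28 ± 0.389 FPKM in siCtrl and 2.85 ± 0.140 in siNQO1 (SD, n = 3 each; edgeR adjusted p = 0.269).

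Prdm9 had the largest log2 fold change of all members, at a low level. It encodes the zinc finger H3K4 and H3K36 methyltransferase that places meiotic recombination hotspots and is normally made in germ cells. The gene had 8, 12 and 8 reads in siCtrl and 35, 60 and 57 reads in siNQO1. These correspond to 0.09, 0.11 and 0.07 FPKM and to 0.33, 0.58 and 0.46 FPKM, with no overlap. The log2 fold change came to 2.34 (SE 0.320, edgeR adjusted p = 0.00329), and the gene passed without any 1 library (highest edgeR adjusted p = 0.0243). DESeq2 gave it no adjusted p. The log2 fold change was 2.28 with limma voom (adjusted p = 0.00534). With limma on log2(FPKM + 0.1) it was 1.53 (adjusted p = 0.00471), and on log2(FPKM + 1) it was 0.41 (adjusted p = 0.00979). At this low level the size of the last 2 depends on the constant added.

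Another low PRDM gene, Prdm8, had 1, 11 and 7 reads in siCtrl and 18, 15 and 23 in siNQO1. Its groups did not overlap, and siCtrl replicate 1 was the lowest library (log2 fold change 1.47, SE 0.515, edgeR adjusted p = 0.10). The more abundant members of the family had smaller differences. Prdm4 was at 6.34 ± 0.675 FPKM in siCtrl and 5.25 ± 0.136 in siNQO1, Prdm2 at 3.38 ± 0.040 and 3.24 ± 0.0964, and Prdm15 at 1.68 ± 0.0608 and 1.60 ± 0.104 (SD, n = 3 each), and none of the 3 passed (adjusted p = 0.112, 0.693 and 0.716 from edgeR).

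Nsdhl, the sterol dehydrogenase that the naming rule takes in, was at 9.73, 9.81 and 9.91 FPKM in siCtrl and 12.9, 12.6 and 12.8 in siNQO1. It rose by 0.39 on the log2 scale (SE 0.057, edgeR adjusted p = 0.00459). Without it, 3 chromatin genes were higher and 4 lower among 59 tested.

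The count of calls depended on single libraries, most of all on siCtrl replicate 2. This library was the highest of the 6 in 18 of the 60 members (30%, against 18.1% of all genes) and the lowest in 8 (13.3%, against 23.6%). In 10 members it lay more than 0.5 above the mean of the other siCtrl libraries on the log2 CPM scale, and in none more than 0.5 below, where all genes gave 11% and 2.82%. Those 10 were Ash1l, Jarid2, Kdm4c, Kdm5a, Kdm6a, Kmt2c, Prdm8, Setd2, Suz12 and Uty. Kdm5a, an H3K4 demethylase, may serve as an example, with 1.36, 2.76 and 1.54 FPKM in siCtrl and 2.32, 2.27 and 2.08 in siNQO1.

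Without siCtrl replicate 2, 14 members were higher and 7 lower (23.3% and 11.7%, against 17.2% and 16.1% of all genes), together 35% against 33.3%. Past a fold of 2 were Prdm8 and Prdm9 (3.33%, against 2.38% of all genes). All 8 genes called with 6 libraries were among these 21. Added among the higher genes were Ash1l, Kdm4c, Kdm5a, Kdm5d, Kmt2e, Prdm8, Setd2, Smyd2, Suz12 and Uty, and among the lower ones Kdm4a, Setd6 and Whsc1. The largest additions were in Prdm8, Uty, Suz12, Setd2 and Kdm5a, with log2 fold changes of 2.06, 0.81, 0.75, 0.71 and 0.62. Mitochondrial transcripts took 6.40% of the reads of siCtrl replicate 2, 4.25% and 5.19% of those of siCtrl replicates 1 and 3, and 6.01% to 6.53% in siNQO1. Their part in these differences was not tested. Leaving out another library gave fewer calls. There were 4 higher and 3 lower members without siCtrl replicate 1 (346 and 662 of 12651 genes tested). Without siCtrl replicate 3 there were 2 and 2 members (301 and 448 of 12635 genes). Also 2 and 2 were left without siNQO1 replicate 1 (227 and 495 of 12644 genes) or siNQO1 replicate 3 (189 and 423 of 12623 genes). Without siNQO1 replicate 2 there were 2 and 1 (167 and 351 of 12635 genes). The counts over all genes thus fell as well, from 654 and 917 of 12420 with 6 libraries.

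Paralogs were compared within each library, where the ratio of their FPKM needs no scaling between libraries. Of the 12 pairs listed, 11 could be compared. Ezh2 exceeded Ezh1 by 1.78, 2.54 and 2.05 times in siCtrl and by 1.76, 1.73 and 1.64 times in siNQO1, so that each siNQO1 ratio was below each siCtrl ratio, though only just below that of siCtrl replicate 1. The difference of the log2 ratios was -0.30, with an exact two-sided permutation p of 0.10, the smallest that 3 libraries against 3 allow (adjusted p = 0.37 over the 11 pairs). Without siCtrl replicate 2, the library with the highest ratio, the difference was -0.16. Kdm2a over Kdm2b was 0.715, 0.806 and 0.791 in siCtrl and 0.955, 1.02 and 1.02 in siNQO1, a difference of 0.38 on the log2 scale (exact permutation p = 0.10, adjusted p = 0.37). The ratio of Setd1a to Setd1b went from 12.2, 11.7 and 11.96 to 15.2, 17.2 and 13.6, a difference of 0.35 (exact permutation p = 0.10, adjusted p = 0.37). No pair could reach a p of 0.05 in this design.

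The remaining ratios overlapped between the groups. Suv39h1 exceeded Suv39h2 by 6.48 to 8.59 times in siCtrl and by 7.24 to 8.50 times in siNQO1 (exact permutation p = 1.00), and Kdm3a exceeded Kdm3b by 2.33 to 2.55 and by 2.11 to 2.55 times (p = 0.80). Ehmt1 stood at 0.0318 to 0.0400 of Ehmt2 in siCtrl and at 0.0363 to 0.0417 in siNQO1. Kdm4a over Kdm4c was 3.13, 1.98 and 3.10 in siCtrl and 1.85, 1.76 and 2.15 in siNQO1, a larger difference (-0.48 on the log2 scale) whose groups were bridged by siCtrl replicate 2 (exact permutation p = 0.20).

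**Figure D4:**
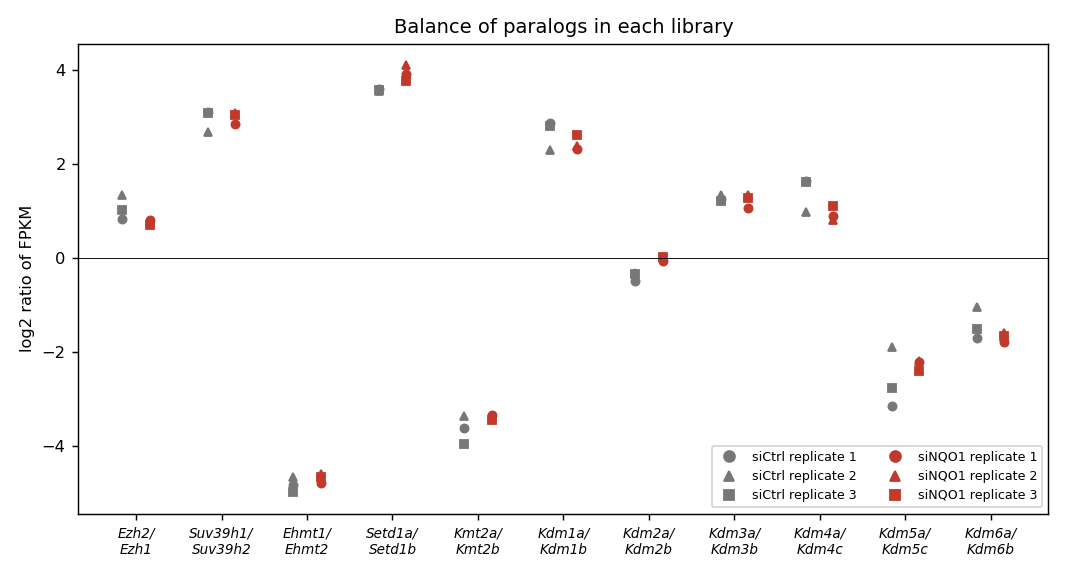
Log2 ratio of the FPKM of paralog pairs in each library, with siCtrl in gray and siNQO1 in red and the marker shape giving the replicate; the line at 0 marks equal levels. Ehmt2 exceeds Ehmt1, Kmt2b exceeds Kmt2a, Kdm5c exceeds Kdm5a and Kdm6b exceeds Kdm6a in every library.

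Partners of these enzymes were taken in lists chosen by function, and their calls are to be read against the 5.27% higher and 7.38% lower of all genes. Among 14 genes of COMPASS and MLL partners, Wdr82, which recruits SETD1 complexes to RNA polymerase II, went from 14.7 ± 1.53 FPKM to 9.72 ± 0.765 (SD, n = 3 each; log2 fold change -0.58, edgeR adjusted p = 0.00717), Hcfc1 had a log2 fold change of -0.21 (edgeR adjusted p = 0.0335), and 12 did not pass. In the accessory subunits of PRC2, Phf1, which binds H3K36 trimethylation, rose by 0.41 and the histone chaperone Rbbp4 had a log2 fold change of -0.21, while 4 did not pass (adjusted p = 0.0129 and 0.0463 for the former 2 from edgeR). Of 17 PRC1 genes, Yaf2 and Cbx2 were higher, with log2 fold changes of 0.37 and 0.36 (edgeR adjusted p = 0.0101 and 0.0219), and 15 did not pass. None of 12 rows of CoREST and LSD1 partners passed, and 3 of them had an unadjusted p under 0.05. Hdac2, the histone deacetylase of that complex, was at 51.1 ± 3.58 FPKM in siCtrl and 57.7 ± 0.608 in siNQO1 (SD, n = 3 each; edgeR adjusted p = 0.0574). It was called higher together with Zmym2 without siCtrl replicate 2 (log2 fold changes 0.23 and 1.014, edgeR adjusted p = 0.00231 and 2.25e-05), and Rcor3 was called lower (-0.41).

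Of 11 genes of HP1 and heterochromatin partners, 2 were lower and 9 did not pass. Uhrf1, which reads H3K9 methylation and brings DNMT1 to replicated DNA, fell by 0.34, and Wiz, a zinc finger partner of G9a, fell by 0.24 on the log2 scale (edgeR adjusted p = 0.00467 and 0.0442). Without siCtrl replicate 2, 4 of the 11 were lower (Uhrf1, Wiz, Trim28 and Daxx) and 4 higher (Mphosph8, Atrx, Mga and Cbx1), with Mphosph8 at 1.51 and Atrx at 1.09 on the log2 scale. Dnmt1, the maintenance DNA methyltransferase, was at 29.7 ± 1.56 FPKM in siCtrl and 25.4 ± 0.814 in siNQO1 (SD, n = 3 each; edgeR adjusted p = 0.0420), and the other 5 genes of DNA methylation did not pass. Of 8 methyl donor genes, Ahcy, which clears S-adenosylhomocysteine, fell by 0.39 on the log2 scale (edgeR adjusted p = 0.00460) and 7 did not pass. Among 7 arginine methyltransferase genes Prmt7 fell by 0.29, and among 14 other lysine methyltransferases and JmjC proteins Hr fell by 0.40 (edgeR adjusted p = 0.0331 and 0.00607). The medians of these lists lay between -0.071 for methyl donor genes and 0.070 for PRC2 accessory subunits, where all genes gave 0.010. The calls of Hcfc1, Phf1, Rbbp4, Yaf2, Cbx2, Wiz, Dnmt1 and Prmt7 were lost without at least 1 library, with highest adjusted p of 0.0962, 0.0664, 0.159, 0.0681, 0.0933, 0.125, 0.136 and 0.0979 from edgeR.

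The calls of the other lists also changed without siCtrl replicate 2, when 17.2% of all genes were higher and 16.1% lower. COMPASS and MLL partners then had 1 gene higher and 2 lower, PRC2 accessory subunits 2 and 2, and PRC1 genes 2 and 1. For DNA methylation genes there were 1 and 1, with Dnmt3a called higher (log2 fold change 0.28), for arginine methyltransferases 1 and 2, for methyl donor genes 1 and 2, and for the other lysine methyltransferases and JmjC proteins 3 and 1.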

How the data were processed

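RNA of 3 siNQO1 and 3 siCtrl samples was sequenced by the authors from polyadenylated, strand-specific libraries, aligned to the RGSC6 genome with TopHat2 and counted per gene from uniquely mapped reads. The deposited read counts are raw whole numbers, and the authors scaled the FPKM values to transcript length and mapped reads. Which tool counted the reads, and with which strand setting, is not given in the sources used here. Overlapping genes and close homologs (Kdm5c and Kdm5d, Kdm6a and Uty) may share or lose reads.

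The 12420 of 18746 genes kept by filterByExpr were tested with glmQLFit and glmQLFTest of edgeR 4.0.16 (R 4.3.3) after TMM scaling, with Benjamini-Hochberg adjustment over all of them. The study calls the samples of a group biological replicates, and p-values reflect the spread of these 6 samples. The members and lists were chosen with earlier results of these data known. Named genes are the members past an adjusted p of 0.05, up to 3 others of each role by level, the paralogs described and the list genes called; further members were named after their values were seen. Alternatives were other scalings, filters and tests, limma 3.58.1, DESeq2 1.42.0, a replicate block and each library left out. The script was tested on simulated data. Same-numbered libraries did not deviate together in every pair and were treated as unpaired. Protein sequences were not used here. A member that was not tested and a marker gene are not reported here.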

Additional observations from a re-analysis of the deposited data

How the results depend on the processing

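No call of the 8 genes changed direction in any alternative, and 113 of their 143 values kept the call. Ezh1 and Suv39h1l1 lost theirs under the likelihood ratio and exact tests of edgeR and under limma on log2 FPKM, and Suv39h1l1 also under upper-quartile scaling and without the count filter. Over all genes tested, the numbers higher and lower (654 and 917) became 2164 and 2036 without siCtrl replicate 2. With each library left out in turn they ran from 167 to 2164 and from 351 to 2036. Among the members (4 and 4) they ran from 2 to 14 and from 1 to 7 in the same alternatives. Phf8, Nsdhl and Prdm9 were called in each fit of edgeR, and Kdm1a in each but that without siNQO1 replicate 2. Counting only genes over 1 CPM in 3 libraries, Kdm4a and Whsc1 were also lower. Kdm4a was lower too with library size alone and with DESeq2. Prdm8 was higher under the likelihood ratio and exact tests of edgeR.

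With the replicate block 3 members were higher and 3 lower, and 610 and 740 of all genes, since Ezh1 and Suv39h1l1 did not pass (adjusted p = 0.0584 and 0.0792 from edgeR). The deviations of same-numbered libraries correlated at -0.038, 0.161 and 0.057. They gave no clear sign of pairing, which so few libraries cannot exclude. Under the scalings tried, the median over all genes was 0.004 to 0.022 on the log2 scale, and over the members it lay between -0.048 and -0.030. Depth limits Prdm9, Prdm8 and other genes of under 1 FPKM (12 of the 60 tested). The causes of these changes were not tested.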
